A study of Mus musculus with 23 samples.

Results

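Of the 7500 consensus windows in which Zbtb11 was found by ChIP-seq, 377 (5.03%) lay at a divergent promoter and were outside the strong class. A window was taken as non-strong where its mean coverage with the Zbtb11 antibody was at or below 308.9 normalised reads, and as divergent where it overlapped the promoters of 2 genes on opposite strands whose starts lay within 1 kb and pointed away from each other. Promoters were taken as the 2 kb before a gene start and the 500 bases after it. The 377 windows held 386 pairs and 763 genes, out of 1405 divergent pairs in the annotation; 105 further pairs had a strong window and 914 had no window. The members were thus chosen by their antibody coverage, which is given below as a description only.

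Zbtb11 is a zinc finger protein with a BTB domain, and its sites were mapped in E14 mouse embryonic stem cells. Anti-FLAG ChIP-seq was done in cells in which both Zbtb11 alleles carried the tag (Zbtb11 FLAG/FLAG, Rosa26 WT, 3 libraries), and in untagged E14 cells as a control (Zbtb11 WT/WT, Rosa26 WT, 2 libraries). An antibody to Zbtb11 itself was used in the same untagged E14 cells (4 libraries). RNA was measured at 48 h in 3 groups of 3 libraries: the EtOH control (Zbtb11 lox/lox, Rosa26 ERt2-Cre, ethanol), the Zbtb11 KO (the same Zbtb11 lox/lox, Rosa26 ERt2-Cre cells with 250 nM 4-hydroxytamoxifen, 4OHT) and the 4OHT control (Zbtb11 WT/WT, Rosa26 WT, 250 nM 4OHT). All of these cells descend from E14; the tagged cells are 1 isolated line, and the recombinase is expressed from Rosa26 and acts on the floxed allele only when 4OHT is present. The EtOH control differs from the KO in the drug and the recombination, whereas the 4OHT control differs from both other groups in the line.

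In a divergent promoter a pair of genes is read outward in opposite directions from a shared stretch of DNA. Such promoters are common in mammals, usually sit in CpG islands without a TATA box, and often serve housekeeping genes; many of the partners are non-coding transcripts. The core CCGGAAG is the sequence recognised by ETS-family factors such as GABP, and is frequent in promoters of this kind.

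The DNA of the promoters that the results turn on is printed here from the mm9 plus strand, with CCGGAAG or its reverse complement CTTCCGG in capitals. The first 3 stretches are everything between the starts of the pair, shown because the first 2 pairs hold the member genes that changed in the Zbtb11 KO and the other had the highest antibody coverage below the limit: Trip4/Csnk1g1 at chr9:65756602-65756780, Pde6d/Cops7b at chr1:88479205-88479478 and Mysm1/Gm12694 at chr4:94645792-94645893.
Trip4/Csnk1g1: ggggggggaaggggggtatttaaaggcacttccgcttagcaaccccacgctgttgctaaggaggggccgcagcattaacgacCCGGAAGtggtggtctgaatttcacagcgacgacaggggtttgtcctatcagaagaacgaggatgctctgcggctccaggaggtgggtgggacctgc
Pde6d/Cops7b: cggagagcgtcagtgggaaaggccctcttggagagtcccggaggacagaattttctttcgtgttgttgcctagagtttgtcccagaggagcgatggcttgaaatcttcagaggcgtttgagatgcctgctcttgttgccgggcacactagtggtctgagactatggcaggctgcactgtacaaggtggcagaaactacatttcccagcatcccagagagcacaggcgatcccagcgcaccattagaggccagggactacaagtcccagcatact
Mysm1/Gm12694: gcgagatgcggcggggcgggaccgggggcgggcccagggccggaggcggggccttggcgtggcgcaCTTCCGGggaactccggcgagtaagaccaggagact

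Single sites of 27 bases are shown for the well-known pairs Gart/Son (chr16:91647168-91647194) and Atm/Npat (chr9:53344751-53344777), for the Zbtb6/Rabgap1 promoter (chr2:37298680-37298706), and for the strong windows that lie inside Cops7b (chr1:88483657-88483683) and Trip4 (chr9:65732962-65732988), to which the expression results return.
Gart/Son: ctcgcacccgCCGGAAGttggcccggg
Atm/Npat: cgccttcccgCTTCCGGctctataaag
Zbtb6/Rabgap1: cccaacggaaCCGGAAGggcagccctg
Cops7b strong window: cagtgggaggCTTCCGGgggaacagca
Trip4 strong window: cttcgctcagCTTCCGGatctacgagt

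The pairs were closely spaced. The distance between the starts ran from 1 to 967 bases with a median of 149.0 and quartiles of 76.0 and 268.8, and 304 of 386 pairs (78.8%) were within 300 bases. The median was 113.0 bases for the 105 pairs with a strong window and 162.5 for the 914 pairs without a window. In 256 pairs both genes were protein-coding, in 124 there was 1 coding gene and in 6 there was none. The non-coding genes were mostly lincRNAs (75 genes) and processed transcripts (33), with 9 miRNAs, 7 pseudogenes, 4 snoRNAs, 3 snRNAs and 3 other RNAs. Of the windows, 368 held 1 pair and 9 held 2; the windows lay on 20 chromosomes, with the highest counts on chromosomes 11 (37) and 1 (36).

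The centre of the window seldom lay between the starts. Both starts were inside the window in 316 pairs, yet the centre fell between them in 65 pairs (16.8%), downstream of the plus-strand start in 162 and downstream of the minus-strand start in 159. The centre was a median of 183.8 bases (quartiles 97.0 and 338.1) from the midpoint of the starts. For the 105 strong pairs the centre lay between the starts in 31, and the median distance to the midpoint was 98.0 bases. Where both genes were measured in RNA, the centre was nearer to the start of the more abundant partner, per kb of exon, in 139 of 268 pairs (51.9%), so the windows were not placed mainly over either the stronger or the weaker gene.

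**Figure D1:**
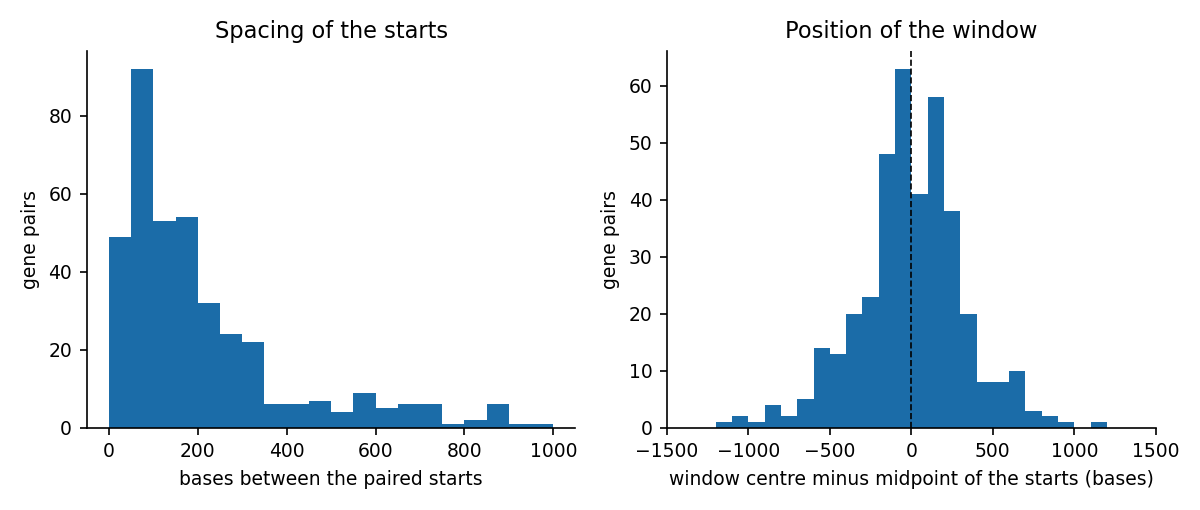
Position of the windows relative to the paired gene starts. The panels plot the number of pairs by the distance between the starts and by the offset of the window centre from the midpoint, both in bases; most pairs are within 300 bases, and the centres spread to both sides of the midpoint (dashed line).

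All 377 windows overlapped a peak in both the FLAG-Zbtb11 and the Zbtb11 peak lists, and 0 overlapped a peak called with anti-FLAG in untagged cells, by at least 1 base. Both counts follow from how the study built the windows, so they are no separate support for the members. The study kept peaks found with both methods and removed FLAG peaks also called in untagged cells. Coverage is the read count of a window after the normalisation of the authors. With the antibody, the median over the members was 81.1, 91.4, 98.7 and 92.2 in the 4 libraries; with anti-FLAG, it was 90.2, 90.7 and 96.0 in the 3 libraries. The strong divergent windows had medians of 365.7 to 603.9 with anti-FLAG, so the members sat well below them in every FLAG library. The mean antibody coverage of a member ranged from 16.9 to 304.3, and its mean FLAG coverage, which the rule did not use, from 25.0 to 373.5. At the FLAG limit computed in the same way from the quartiles of all windows, 260.5, 13 of the 377 members were above it, as were 97 of the 103 strong divergent windows.

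Non-strong windows at divergent promoters had more FLAG coverage than the 2724 non-strong windows at other promoters, whose medians were 71.2, 73.1 and 77.2. The difference of the medians was 0.34, 0.31 and 0.31 on the log2 scale, a mean of 0.32 ± 0.02 (SD, n = 3), and was in the same direction in 3 of 3 libraries. An exact two-sided sign permutation test of 3 libraries cannot give a p below 0.25. Over windows with a CpG island the difference was 0.262, and over windows without CCGGAAG it was 0.337, so it was present in both subsets. By the rule a member window had to reach within 500 bases of a start, while windows at other promoters could lie up to 2 kb before one. The classes were not matched on this distance, and its part in the difference was not tested.

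**Figure D2:**
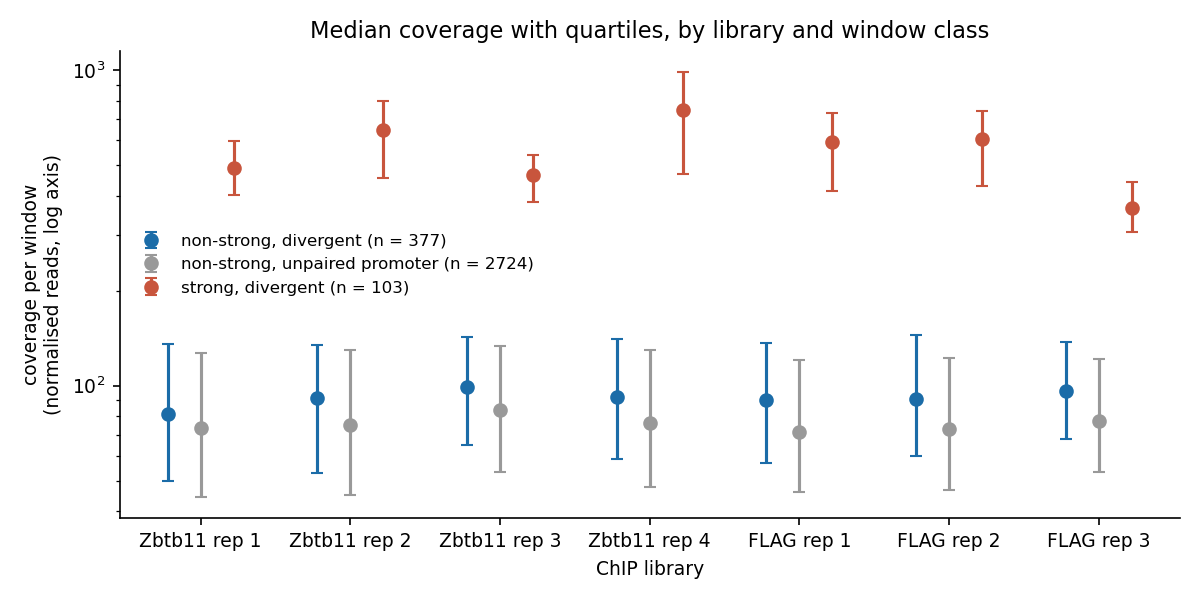
Coverage of the non-strong divergent windows, other non-strong promoter windows and strong divergent windows in the 4 Zbtb11 and 3 FLAG-Zbtb11 libraries, in normalised reads on a log axis, as medians (points) with quartiles (bars). The members sit slightly above the other non-strong windows and far below the strong ones in all 7 libraries. In the 4 Zbtb11 libraries the gap to the strong windows follows from the rule.

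Within a method the libraries ordered the windows alike. Across the 377 windows, which share DNA content and base composition between libraries, Pearson's r of log2 coverage was 0.874 to 0.883 between FLAG libraries, 0.807 to 0.907 between antibody libraries and 0.690 to 0.794 between methods. The median coefficient of variation was 16.6% for FLAG and 19.6% for the antibody. Every FLAG library was above every antibody library in 60 members (15.9%), beside 11.2% of all windows, and below in 54 (14.3%), beside 16.8% of all windows. The rule capped the antibody coverage of the members and not that of all windows, so these shares are a description only.

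The members with the highest FLAG coverage were the promoters of Seh1l, Hgs, Mysm1, Bud31 and Rabgap1. The window of Gm17238 and Seh1l, a component of the nuclear pore, had a FLAG coverage of 460.7, 444.5 and 215.4, and an antibody coverage of 301.2, 319.0, 276.7 and 312.2. The third FLAG library was thus below the other 2. The window of Arl16 and Hgs, a gene of endosomal sorting, had 392.6, 384.5 and 272.2 with FLAG and 294.5, 290.2, 297.9 and 322.9 with the antibody. The window of Mysm1, a histone H2A deubiquitinase, and the processed transcript Gm12694 had 372.0, 364.1 and 259.7 with FLAG and 304.5, 311.0, 284.0 and 317.5 with the antibody. In each of these windows the third FLAG library was the lowest.

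The window of Pdap1 and the splicing gene Bud31 had 319.8, 356.8 and 283.1 with FLAG. The window shared by the BTB zinc finger genes Zbtb26 and Zbtb6 with Rabgap1, which encodes a Rab GTPase-activating protein, had 315.0, 331.9 and 264.7. With the antibody these windows had means of 225.9 and 256.0, below those of the 3 before. The 3 members just inside the limit had means of 301.4 (Arl16/Hgs), 302.3 (Gm17238/Seh1l) and 304.3 (Mysm1/Gm12694) with the antibody, and the 3 divergent windows just outside had 315.1 (Solh/1700022N22Rik), 318.6 (Gm2822/Depdc1b) and 330.1 (D11Wsu99e/D11Wsu47e).

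Of 11 divergent pairs known from textbooks, 4 met the rule in this annotation, and 2 of these had a member window. Atm, the kinase that signals DNA breaks, and Npat, a coactivator of histone genes, shared a window with an antibody coverage of 41.1, 20.8, 58.7 and 30.2 and a FLAG coverage of 68.1, 84.8 and 55.9. Gart, an enzyme of purine synthesis, and Son, a splicing cofactor, shared one with 8.89, 27.3, 40.6 and 23.1 with the antibody and 44.3, 33.6 and 55.1 with FLAG. Both windows were weak in every library, below the median of the members. The pairs Mcm4/Prkdc and Mrps12/Sars2 had no window.

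The windows were rich in CpG islands, and held CCGGAAG more often than all windows did. Their median GC content was 58.6% and their median ratio of observed to expected CpG was 0.771. A CpG island lay in 95.2% of them (Wilson 95% interval 92.6 to 97.0), in 83.8% of the other non-strong promoter windows, in 97.1% of the strong divergent windows and in 51.4% of all windows. CCGGAAG on either strand was in the central 300 bases of 163 of 377 members (43.2%, interval 38.3 to 48.3), against 37.5% (35.7 to 39.4) of the other non-strong promoter windows, 60.2% (50.5 to 69.1) of the strong divergent windows and 29.4% of all windows. In the central stretch the interval of the members overlapped that of the other promoters and not that of the strong windows. Over whole windows, given below, the intervals of the members and the other promoters did not overlap. Intervals here cover counting error only. As for coverage, member windows had to reach nearer to a start than windows at other promoters, and the classes were not matched on this.

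Near the midpoint of the starts, the ETS core was more frequent at pairs with a window than at pairs without one. Within 150 bases of the midpoint of the starts it was present in 38.9% (34.1 to 43.8) of the member pairs, in 52.4% of the strong pairs and in 12.6% (10.6 to 14.9) of the pairs without a window, while 7.89% of equal stretches at all gene starts held it. Other promoter motifs, also read on both strands, did not follow this order: in the same stretches GGGCGGG, the core of the GC box, was in 51.0% of the member pairs, 38.1% of the strong pairs and 46.5% of the pairs without a window, and CCAAT was in 39.6%, 38.1% and 45.8%. In the central stretches of the windows GGGCGGG was in 41.4%, beside 37.8% of the other non-strong promoter windows and 23.9% of all windows. CCAAT was in 23.9%, beside 21.8% and 25.7%. In whole windows GGGCGGG was in 74.3%, beside 69.1% and 46.7%, and CCAAT in 70.6%, beside 70.7% and 73.9%. CCGGAAG was in 58.9% (53.9 to 63.7) of whole windows, beside 49.2% (47.3 to 51.1) and 39.1%. The longer motifs of NRF-1, YY1 and BANP were each in 1.06% of the central stretches of the windows and TGACGTCA in 1.59%. TATAAA was in 3.45%, beside 2.94% and 5.72%. A match says only that the letters are there.

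**Figure D3:**
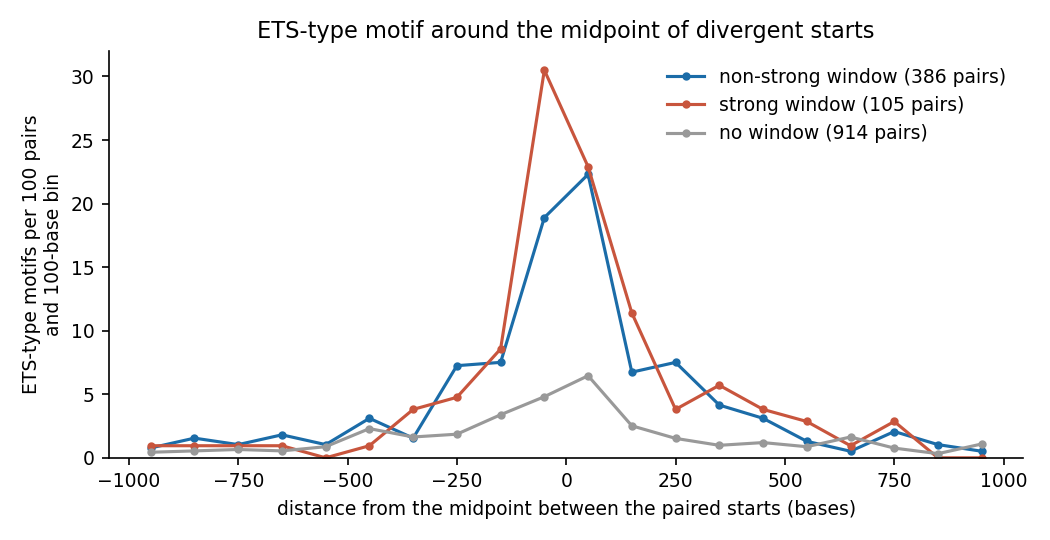
CCGGAAG on either strand per 100 pairs, in steps of 100 bases from the midpoint of the paired starts (axis in bases), for pairs with a member window, a strong window and no window. The members reach 22.3 per 100 pairs beside the midpoint, where the pairs without a window have 6.46.

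FLAG coverage was higher in windows with more such sites. The median of the mean FLAG coverage was 80.5 over the 155 windows without CCGGAAG, 94.1 over 139 with 1 and 116.0 over 83 with 2 to 4. Each of the 3 FLAG libraries had this order, with medians of 77.6, 88.7 and 114.0 in the first, 77.5, 96.5 and 112.6 in the second and 82.7, 98.1 and 117.3 in the third. Coverage was lower where the starts were far apart: the median was 97.6 for 140 windows with starts 1 to 100 bases apart, 102.1 for 104 at 101 to 200, 91.7 for 81 at 201 to 400 and 76.8 for 52 at 401 to 1000. It hardly depended on the type of partner, with 94.0 where both genes were coding (251 windows) and 94.1 where there was 1 coding gene (121).

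RNA levels are given as CPM, the read count of a gene scaled to the size of its library. The libraries held 14301457 to 23876604 reads on genes. All 8 embryonic stem cell markers listed were expressed, with a sum of 4111 to 5177 CPM in every library, whereas 6 fibroblast markers together stayed at 16.1 to 26.6 CPM with 1 at 0, 5 markers of primitive endoderm at 9.89 to 15.9, and the 4 found of 5 neural and mesoderm markers at 39.3 to 53.2. The summed stem cell level was higher in the 4OHT control (4751 to 5177) than in the EtOH control (4219 to 4661) or the KO (4111 to 4749). The annotation has no gene of the name Zbtb11, so the loss of its transcript was not followed here. Bulk RNA cannot tell fewer cells expressing a gene from less RNA per cell.

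Loss of Zbtb11 changed few of the genes at these promoters. Of the 763 genes, 641 passed the filter on low counts, and 2 of these fell in the Zbtb11 KO against the EtOH control (0.312%), beside 0.899% of all 14346 genes tested (0.843% lower). They were Trip4, a subunit of the ASC-1 transcriptional coactivator, and Cops7b, a subunit of the COP9 signalosome, which removes NEDD8 from cullin ubiquitin ligases. In the upward direction 0 members passed in edgeR, beside 0.0558% of all genes; 5 members in all had an unadjusted p under 0.05, and DESeq2 also called 2. The median log2 change of the members was -0.003 with quartiles of -0.06 and 0.06. At the strong divergent windows 13 of 177 tested genes changed (7.34%), and at the other non-strong promoter windows 4 of 2560 (0.156%).

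Trip4 (ENSMUSG00000032386.8, chr9:65678943-65756601, minus strand) had 30.1, 31.4 and 30.5 CPM in the EtOH control, 12.5, 12.1 and 12.6 in the KO, and 36.8, 39.0 and 37.9 in the 4OHT control. The 3 KO libraries were below all 6 others. The log2 change against the EtOH control was -1.31 ± 0.08 (SE; edgeR adjusted p = 3.57e-05), and against the 4OHT control -1.62 (adjusted p = 5.80e-06). Its partner Csnk1g1, a casein kinase 1, had 60.9, 61.0 and 59.0 CPM in the EtOH control and 57.6, 61.0 and 61.1 in the KO, a change of -0.01 ± 0.07, so the groups overlapped. Csnk1g1 was lower in the 4OHT control, at 46.9, 49.2 and 47.2 CPM.

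Cops7b (ENSMUSG00000026240.6, chr1:88479479-88503553, plus strand) had 30.3, 37.1 and 38.1 CPM in the EtOH control, 13.5, 17.1 and 18.1 in the KO and 29.2, 37.4 and 45.1 in the 4OHT control. Again every KO library was below all others. The log2 change was -1.11 ± 0.18 (edgeR adjusted p = 0.0190) against the EtOH control and -1.20 (adjusted p = 0.00462) against the 4OHT control. Its partner Pde6d, a carrier of lipid-modified proteins, had 18.8, 17.8 and 16.4 CPM in the EtOH control and 17.6, 18.2 and 16.7 in the KO, a change of -0.01 ± 0.11. Without replicate 2 the change of Trip4 was -1.28 (edgeR adjusted p = 0.0598) and that of Cops7b -1.12 (adjusted p = 0.925). Without replicate 3 that of Cops7b was -1.14 (edgeR adjusted p = 0.248). The sizes thus held while these calls did not, and the calls over all genes also fell, as given below. Without replicate 1 both passed, and 212 of 14172 genes passed in all, beside 129 of 14346 with all replicates. Between groups, replicate 1 deviated against replicates 2 and 3 (r -0.753 to -0.477). The study left out 1 unnumbered replicate as more distant. The part of replicate 1 in the lost calls was not tested.

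Both genes had a second, strong window inside the gene. The window at their divergent promoters was far weaker: that of Pde6d/Cops7b (chr1:88478738-88479937) had 74.5, 115.4, 136.8 and 81.6 with the antibody and 39.6, 57.0 and 55.1 with FLAG, and that of Trip4/Csnk1g1 (chr9:65756230-65757429) had 53.4, 59.3, 67.2 and 79.8 with the antibody and 72.8, 90.7 and 76.0 with FLAG. The strong window in Cops7b (chr1:88483067-88484266) lay 4187 bases from the annotated gene start, had 486.8, 721.4, 477.7 and 981.0 with the antibody and 647.5, 653.6 and 385.4 with FLAG, and held the starts of 3 of the 6 annotated transcripts of the gene. The strong window in Trip4 (chr9:65732307-65733506) lay 23695 bases from the start, had 415.7, 623.6, 407.5 and 773.5 with the antibody and 511.3, 481.0 and 279.3 with FLAG, and held the starts of 2 of 9 transcripts. Both strong windows were several times higher than the promoter window in each library, and the sites printed above from them lie 4 bases (Cops7b) and 69 bases (Trip4) from their centres. These windows were looked for after the changes of the 2 genes were known.

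Only 7 member genes had a strong window in the gene or its promoter. Besides Cops7b and Trip4 these were Pcmt1 (18153 bases from the start, 4 of 11 transcript starts; log2 change -0.13 ± 0.09), Srsf11 (4803 bases, 3 of 15; -0.04 ± 0.09), and Synj2bp, Eml3 and Shc1, whose strong windows held the starts of the neighbouring genes Cox16, Mta2 and Pygo2 (-0.19 ± 0.25, 0.09 ± 0.15 and -0.04 ± 0.14). None of these 5 passed the test. Of the 634 tested members without a strong window, 0 passed in edgeR and 0 in DESeq2, and 3 had an unadjusted p under 0.05. With the replicate number as a block, 3 members passed, beside 2.25% of all genes; the added gene was Tmem209, with 129.5, 108.1 and 118.4 CPM in the EtOH control and 116.6, 95.5 and 94.1 in the KO (-0.22, adjusted p = 0.0299).

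Genes whose KO and EtOH libraries did not overlap were about as frequent as elsewhere. Every KO library was lower in 25 members (3.90%), beside 4.02% of all genes, and every KO library was higher in 18 (2.81%), beside 3.19% of all genes.

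The partners of a pair had the same direction of change in the KO about as often as opposite ones. Over all tested members these changes were small beside their error (quartiles -0.06 and 0.06, median SE 0.135). Their signs thus cannot decide whether partners change together. Both genes were measured in 268 pairs, and their log2 changes had the same sign in 140 (52.2%); across these pairs, which share libraries, r was 0.04. For the 75 measured pairs at strong windows 35 (46.7%) had the same sign and r was 0.40. The levels of the partners followed each other as little: per kb of exon, the median absolute difference was 1.86 on the log2 scale, and r was -0.07. In 0 of 268 pairs did both genes pass the edgeR test, and in 2 pairs 1 gene did. Where the line differs, partners moved in the same direction more often. Between the EtOH control and the control of the other line, the sign was the same in 171 pairs (63.8%), and r was 0.42. Between the KO and that control it was the same in 172 (64.2%), and r was 0.30. Pairs without a window had 58.0% and 59.0%, with r of 0.33 and 0.36. Whole stretches of chromosome also differ between these lines, as given below, and their part in this was not tested.

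**Figure D4:**
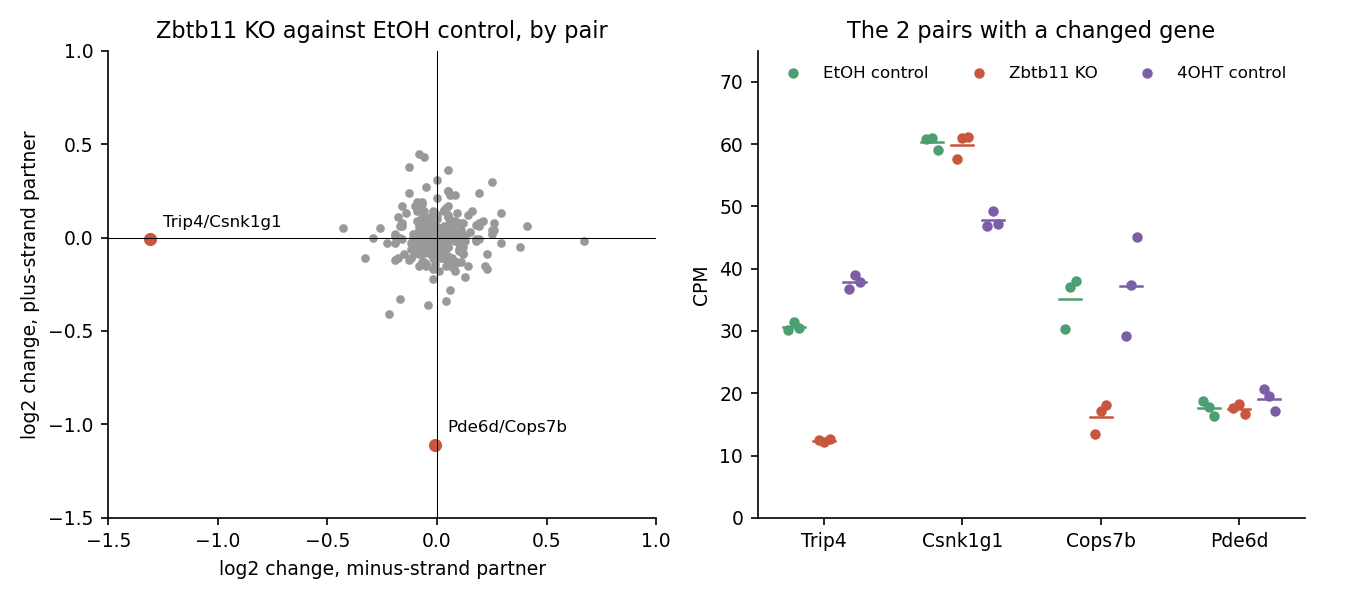
Log2 change in the Zbtb11 KO against the EtOH control of the plus-strand gene against that of its minus-strand partner, with 1 point per pair, and CPM of the 2 pairs with a changed gene in each library with group means. The points of the 268 member pairs scatter around 0 without a diagonal, and Trip4 and Cops7b lie apart while their partners are near 0.

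The promoters with the highest FLAG coverage had no gene that passed the test in the KO. Seh1l had 251.0, 216.4 and 226.6 CPM in the EtOH control and 223.5, 190.8 and 200.4 in the KO, a log2 change of -0.17 ± 0.12 that did not pass. The changes were -0.01 ± 0.09 for Hgs, -0.10 ± 0.16 for Arl16, -0.08 ± 0.11 for Mysm1, 0.06 ± 0.30 for Bud31, -0.01 ± 0.13 for Pdap1, 0.00 ± 0.12 for Zbtb26, 0.05 ± 0.12 for Zbtb6 and -0.02 ± 0.08 for Rabgap1. None of these genes passed. Of the well-known pairs, Atm changed by 0.05 ± 0.15, Npat by -0.12 ± 0.07, Gart by -0.02 ± 0.08 and Son by -0.01 ± 0.12, and none passed. In the EtOH control their levels per kb of exon were 8.11 CPM for Atm, 16.3 for Npat, 122.7 for Gart and 32.1 for Son.

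By function, 115 of the member genes were on a list of housekeeping or nuclear functions, and Cops7b, on the list of the proteasome and ubiquitin system, was the listed gene that passed in the KO. The lists were drawn by symbol patterns, so the counts given here are not full counts of a function. Members left out include Mrp63, of the mitochondrial ribosome, and Bop1 and Brix1, of ribosome assembly. Among the listed mitochondrial genes, 4 of the ribosome were members (median log2 change 0.041), from Mrpl10 (63.5 CPM per kb, 0.05 ± 0.14) to Mrpl41 (18.9, 0.09 ± 0.10). The list of respiratory chain subunits had 9 members (median 0.015), from Cox4i1 of complex IV (335.9 CPM per kb, 0.10 ± 0.08) to Ndufa1 of complex I (53.4, 0.01 ± 0.10). The 9 include Cox4nb, the partner of Cox4i1, which matched by its symbol and is not a chain subunit. The assembly factors of complex IV Sco1 and Cox10 changed by -0.01 ± 0.09 and -0.13 ± 0.14, the mitochondrial arginyl-tRNA synthetase gene Rars2 by -0.12 ± 0.19, and of 3 genes of protein import Pmpca, which encodes a subunit of the processing peptidase, had 0.02 ± 0.06 and Tomm6, of the outer membrane translocase, 0.19 ± 0.29. None of these mitochondrial genes passed, with or without the block.

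DNA replication and repair was one of the larger groups, with 20 members and a median of -0.006. Its values for the most and the least expressed member were -0.00 ± 0.10 for Rpa1, of the single-strand binding complex (81.4 CPM per kb), and 0.01 ± 0.15 for Rad52, of homologous recombination (4.16). There were 16 genes of splicing and RNA processing, with a median of 0.008 (Ddx5, an RNA helicase, 0.11 ± 0.11, and U2af1l4 -0.07 ± 0.16). Modification of tRNA and rRNA and ribosome assembly had 3 genes, with 0.032 (Utp15 0.04 ± 0.14 and Trmt5 0.03 ± 0.19). The cytosolic ribosome had 5, with -0.026 (Rpl4 -0.02 ± 0.09 at 1381 CPM per kb, and Rpl36al 0.00 ± 0.12). Cytosolic translation had 5, with -0.007 (the lysyl-tRNA synthetase gene Kars -0.01 ± 0.06, and Eif5a2 0.07 ± 0.14). The medians of these groups were near that of all members, while single members of DNA replication and repair ranged from -0.19 to 0.24. Of 12 genes of the proteasome and ubiquitin system 11 were tested (0.025; Psma7, a proteasome subunit, 0.03 ± 0.13, and the F-box gene Fbxo47 -0.02 ± 0.20). There were 14 genes of vesicle traffic, with a median of -0.006 (Sec16a -0.04 ± 0.07 and Rab13 0.01 ± 0.22). The 20 genes matched by symbol as zinc finger factors, Zbtb8os among them, had 0.039 (Zfp706 -0.01 ± 0.08 and Zfp524 0.45 ± 0.19). The cell cycle list had 1 member, the kinase gene Plk1 (-0.09 ± 0.09). The list of GABP, NRF-1 and ETS factors had 0 members.

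Non-coding partners were mostly too scarce to test. Of 75 lincRNA genes 27 (36.0%) passed the filter on low counts, as did 14 of 33 processed transcripts (42.4%) and 0 of 9 miRNA genes, against 595 of 629 protein-coding genes (94.6%). The tested lincRNAs had a median of 1.05 CPM per kb in the EtOH control and the coding genes 9.97. In the KO the log2 changes of the lincRNAs were between -0.41 and 0.41, and 0 of 27 passed in edgeR.

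Between the 2 controls, which differ in both line and drug so that these cannot be told apart, more member genes moved. Of 641, 18 passed, beside 4.06% of all genes, 14 of them lower (all genes 2.01%) and 4 higher (2.06%); with the block there were 181, beside 33.6%. The KO against the 4OHT control gave 25, beside 6.45%, with 8 lower (all genes 3.72%) and 17 higher (2.73%); with the block 202, beside 34.9%. Without replicate 1 the counts were 81 of 635, beside 17.1%, and 86 of 635, beside 18.7%; without replicate 2 they were 0 and 1, and without replicate 3 they were 0 and 1. Each control is used in a pair of these comparisons, so they are not independent of each other.

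Many of these differences were gathered on 2 chromosomes. On chromosome 6 from 100 Mb to its end, a boundary set after the values were seen, all 14 tested members were lower in the 4OHT control than in the EtOH control, with a median log2 difference of -0.58, and 7 passed, beside 34.8% of all tested genes there. All 270 tested genes of that stretch had a median of -0.56, and the 395 genes of chromosome 6 below 100 Mb had -0.01. On chromosome 8, 45 of 49 members were higher in the 4OHT control, with a median of 0.25, and 2 passed (4.08%, beside 9.10%); all 758 tested genes there had 0.26. Elsewhere the 578 members had a median of -0.04 and 9 passed (1.56%, beside 3.11%). In the KO against the EtOH control, where the line is the same, the members had medians of -0.02 on distal chromosome 6 and -0.01 on chromosome 8. Between the 2 controls all 6 tested genes of chromosome Y passed, with a median log2 difference of 11.54, higher in the 4OHT control. In the KO against the 4OHT control their median was -11.69.

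The genes on distal chromosome 6, named after their values were seen, include several of genome maintenance. Fancd2, of the Fanconi anaemia pathway, had 201.5, 173.0 and 172.9 CPM in the EtOH control, 188.1, 164.2 and 169.4 in the KO and 128.5, 111.8 and 113.1 in the 4OHT control (-0.63 ± 0.10, edgeR adjusted p = 0.0103, 4OHT against EtOH). Its partner Tmem111 fell with it (-0.53 ± 0.09, adjusted p = 0.0173), and this was the member pair of which both genes passed. Ncapd2, of condensin, had -0.70 ± 0.15 (adjusted p = 0.0350), and the ubiquitin ligase gene Rad18 -0.49 ± 0.11 (adjusted p = 0.0422). Rad52, at 13.5, 12.8 and 15.8 CPM in the EtOH control and 8.17, 8.58 and 10.6 in the 4OHT control, passed in the KO against the 4OHT control (0.63 ± 0.15, adjusted p = 0.0426); between the controls it had -0.62 ± 0.15, with an adjusted p of 0.0587 that became 5.95e-05 with the replicate block. On chromosome 8, Cope, of the COPI coat, had 44.1, 46.4 and 43.8 CPM in the EtOH control, 47.1, 44.8 and 49.8 in the KO and 64.5, 63.0 and 56.4 in the 4OHT control (0.45 ± 0.08, adjusted p = 0.0194). For all of these genes the KO resembled the EtOH control of its own line.

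The Rosa26 locus, which carries the ERt2-Cre insertion in the lox line, is itself a member. Gt(ROSA)26Sor and Setd5, a SET-domain gene, start 32 bases apart in the window chr6:113026556-113027755, which had 112.3, 144.3, 138.0 and 145.5 with the antibody and 228.0, 222.2 and 205.8 with FLAG. Setd5 had 417.4, 475.5 and 470.2 CPM in the EtOH control, 391.4, 448.2 and 423.0 in the KO and 291.8, 329.4 and 333.8 in the 4OHT control (-0.51 ± 0.09, edgeR adjusted p = 0.0166). Gt(ROSA)26Sor had 2.82, 2.10 and 3.24 CPM, 3.03, 3.01 and 2.53, and 1.78, 2.57 and 2.00. Setd5 was thus higher in the line with the insertion, while the libraries of Gt(ROSA)26Sor overlapped and its difference of -0.35 did not pass. Both genes lie on distal chromosome 6, where all 270 tested genes had a median of -0.56, so the difference of Setd5 was usual there. All 8 member windows of that stretch had more FLAG than antibody coverage. Both lines used for ChIP are Rosa26 WT and lack the insertion. A part of the insertion in the RNA differences was not tested.

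The ChIP libraries, which also come from separate lines, showed a shift in the same stretches. The log2 ratio of mean FLAG to mean antibody coverage was above 0 in 8 of 8 member windows of distal chromosome 6, with a median of 0.69, and in 7 of them every FLAG library was above every antibody library; over all 173 windows there the median was 0.44, with 132 above 0 and 67 in which every FLAG library was above. On chromosome 8 the ratio was below 0 in 18 of 26 member windows, with a median of -0.23, and the median of all 403 windows there was -0.25. Elsewhere it was 0.15 over 343 members and -0.02 over 6924 windows. The cap of the rule on antibody coverage holds for the members alone, so their gap to all windows is a description only. On chromosome 8 the median FLAG coverage of the members was 96.6, 90.7 and 111.7, beside 88.7, 89.2 and 95.6 elsewhere, and their antibody coverage was 152.8, 131.5, 129.9 and 138.4, beside 78.9, 88.2, 97.5 and 90.5, so there the antibody libraries stood higher. The number of copies of these stretches in each line was not measured here, and its part in the differences was not tested.

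**Figure D5:**
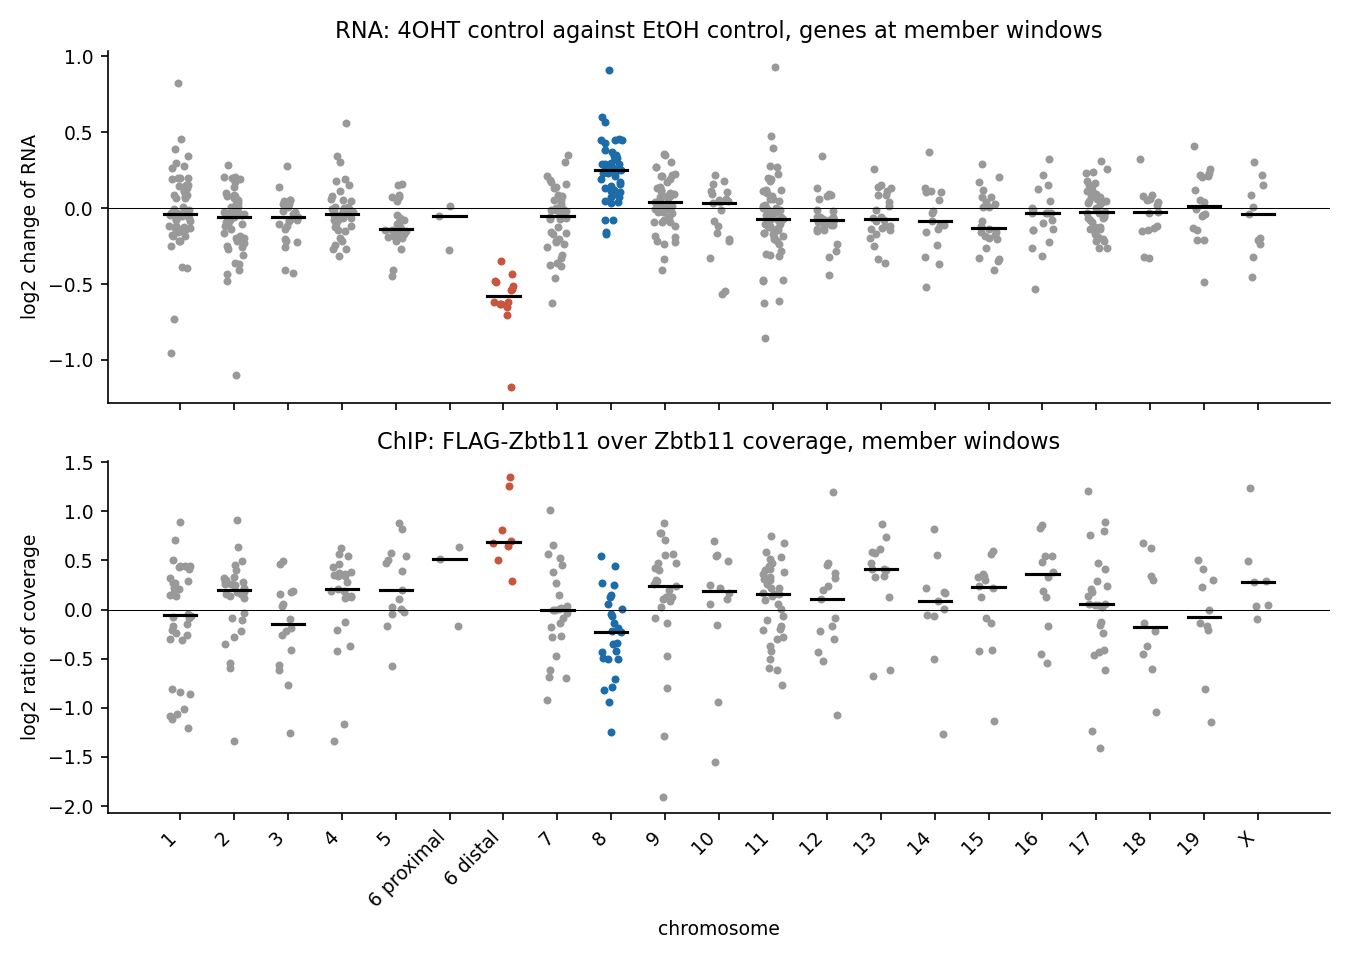
Member genes and member windows by chromosome, with chromosome 6 split at 100 Mb. The upper panel plots the log2 change of each tested gene in the 4OHT control against the EtOH control, and the lower panel the log2 ratio of FLAG to antibody coverage of each window, with medians as black bars; distal chromosome 6 has medians of -0.58 and 0.69, and chromosome 8 of 0.25 and -0.23.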

How the data were processed

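Per the labels and the study's methods, ChIP reads were trimmed (Cutadapt) and mapped to mm9 (Bowtie 1.1.2); the authors then removed duplicates, called peaks with MACS2 and IDR, and deposited the normalised coverage signal (DiffBind) of consensus windows with peak lists. For RNA, directional libraries were aligned with STAR, and the authors deposited HTSeq read counts per GENCODE gene. Reads not on genes were 25.3% to 31.6% of the counted total and were left out.

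Windows were joined to the annotation, and genes with more than 1 CPM in 3 libraries were tested with edgeR (4.0.16; quasi-likelihood, TMM, 3 groups in 1 fit, Benjamini-Hochberg threshold 0.05), with DESeq2 (1.42.0) as an alternative. Same-numbered libraries deviated together (r 0.430 to 0.820), but libraries of different numbers reached an r of 0.526. Pairing by number was thus clear for replicate 1 only. A fit with the replicate block is given where it moves a count. P-values measure the spread between these libraries. Members, gene lists and tests were chosen with earlier results of these data known. Named genes are those past the threshold with their partners, well-known pairs, the pairs of the 5 windows highest in FLAG coverage, those nearest the limit, and the most and least expressed member of each list. Motifs and CpG islands (500 bases, GC 55%, ratio 0.65) were read from mm9. The edgeR script was tested on simulated data. The 5 input libraries were not analysed here.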

Additional observations from a re-analysis of the deposited data

Results flagged for a closer look

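In 1 of 10 groups of 4 antibody libraries looked at, 1 library stood apart from the others. The window of Pdap1 and Bud31 had 257.9 normalised reads in replicate 1 and 214.8, 216.2 and 214.7 in replicates 2, 3 and 4, and the gap was 0.965 of the range. Chance alone does this in about 1 group in 20. With FLAG the same window had 319.8, 356.8 and 283.1.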

How the results depend on the processing

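In the KO against the EtOH control, leaving out replicate 1, 2 or 3 gave 0 to 2 member genes in edgeR: 2 without replicate 1 (212 of 14172 genes in all), 0 without replicate 2 (0.0896% of all genes; 2 members at an unadjusted p under 0.05) and 1 without replicate 3 (0.145%). The replicate block without replicate 1 gave 4, Baiap2, Cops7b, Tmem209 and Trip4, beside 2.27% of all genes. In the 4OHT control against the EtOH control (18 members), DESeq2 gave 40 (all genes 8.27%), no filter on low counts 10 (1.61%), only the 2 groups compared 2 (1.22%), the replicate block 181 (33.6%), the block without replicate 1 152 (27.6%), and leaving out chromosome 8, distal chromosome 6 and chromosome Y 9 (3.11%). Without a replicate the count was 0 to 81: 81 without replicate 1 (17.1%), and 0 without replicate 2 (0.0896%) or replicate 3 (0.165%), where 27 and 40 members had an unadjusted p under 0.05. In the KO against the 4OHT control (25) the same settings gave 46 (10.2%), 12 (2.72%), 11 (4.05%), 202 (34.9%), 165 (29.5%) and 11 (5.33%), and without a replicate 86 (18.7%), 1 (0.565%) and 1 (0.785%).

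The number of windows was 573 when overlapping starts were allowed and 251 with protein-coding genes only. The FLAG difference from other promoters was 0.350 with starts within 500 bases, 0.262 with CpG islands only and 0.312 to 0.328 without 1 library. The share with CCGGAAG was 58.9% over whole windows and 64.5% for CGGAAG, and a looser CpG island was in 99.2%. The cause of these shifts was not tested, except that some settings test fewer genes or samples. The chromosome, CpG island and block without replicate 1 settings were chosen after seeing the data. Counting depth limits the windows of low coverage, such as Gart/Son, and the non-coding partners.

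Of 485 log2 changes of 49 named genes in the KO under the alternatives, 429 kept their direction and side of the threshold, 5 crossed the threshold (Cops7b, Trip4 and Tmem209), and 51, in 24 genes, changed sign. None of the values that changed sign passed its test, and none was larger in size than 0.15, so no direction can be read for these genes. With library sizes alone these were 0.01 for Fbxo47 and Rpl4, 0.02 for Gart, Pde6d and Rabgap1, 0.03 for Csnk1g1, Hgs, Kars, Pdap1, Sco1, Son and Zfp706, and 0.04 for Rpa1. With the replicate block and without replicate 1 they were -0.08 for Zbtb26, -0.06 for Ndufa1, -0.03 for Rpl36al, -0.01 for Zbtb6, 0.02 for Csnk1g1, Hgs and Son, and 0.03 for Pde6d. The filter settings left Rpa1, Son and Zfp706 at 0.00, and the replicate block left Zbtb26 at -0.00. Without 1 replicate the ranges were Arl16 -0.15 to 0.01, Csnk1g1 -0.04 to 0.02, Fbxo47 -0.16 to 0.15, Gart -0.04 to 0.00, Hgs -0.03 to 0.02, Kars -0.05 to 0.03, Ndufa1 -0.06 to 0.10, Pdap1 -0.08 to 0.05, Pde6d -0.04 to 0.03, Psma7 -0.03 to 0.05, Rab13 -0.07 to 0.12, and, for the others, Rabgap1 -0.05 to 0.04, Rad52 -0.06 to 0.08, Rpa1 -0.02 to 0.03, Rpl36al -0.03 to 0.02, Sco1 -0.03 to 0.02, Shc1 -0.11 to 0.01, Son -0.03 to 0.02, Trmt5 -0.01 to 0.09, U2af1l4 -0.11 to 0.00, Zbtb26 -0.08 to 0.05, Zbtb6 -0.01 to 0.14, Zfp706 -0.06 to 0.05.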

Other observations

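The methods disagreed most at a few member windows, chosen after their values were seen. The window of Gm5918 and Ccpg1 (chr9:72832723-72833922) had 191.2, 272.5, 221.0 and 225.3 with the antibody and 64.9, 36.6 and 80.2 with FLAG, a log2 ratio of -1.91. The window of Socs2, a suppressor of cytokine signalling, and 5730420D15Rik (chr10:94878619-94879818) had 145.6, 194.0, 186.5 and 141.9 with the antibody and 50.7, 46.8 and 73.5 with FLAG. Every FLAG library was below every antibody library in both. In the other direction, the window of 4930540M05Rik and Rad52 (chr6:119851988-119853187) had 28.9, 24.0, 48.4 and 31.9 with the antibody and 69.7, 71.6 and 113.1 with FLAG, a log2 ratio of 1.35, and that of Tmem111 and Fancd2 had 1.25; both lie on distal chromosome 6, where all 8 member windows had a ratio above 0. Just outside the limit, Solh/1700022N22Rik had 61.7, 96.5 and 74.3 with FLAG, far below its antibody coverage.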
